A study of Mus musculus with 29 samples.

Results

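RNA was compared between CD150-negative blood progenitors of mice labelled as lacking both Mysm1 and Puma and the same cells of wild-type mice. The double-knockout group, Mysm1-/-Puma-/-, held the libraries B1, B3 and B5, and the wild-type group held D2, D3 and D4, so that 6 of the 29 libraries of the series were compared, chosen by genotype and surface phenotype as labelled. A group labelled Mysm1-/-Puma+/- (A1, A2 and A3) and a group labelled Puma-/- (C2, C3 and C5) of the same cells were set beside them, 12 libraries in all. All mice were labelled as C57BL/6, 8 to 12 weeks old and pooled from both sexes, although the sex-linked genes given further on fit 1 sex in each library, and the marrow cells were sorted as lineage-negative, cKit-positive, Sca1-positive and CD150-negative with dead cells removed. The series asks which effects of Mysm1 loss pass through Puma, and its submitters treated Mysm1-/-Puma+/- mice as equal in phenotype to Mysm1-/- mice. That group still carried 1 Puma allele, and a group lacking Mysm1 with both Puma alleles intact was not analysed here. No treatment was given in the labels, and no cell type restriction of either mutant allele was stated.

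MYSM1 is a nuclear deubiquitinase that removes ubiquitin from histone H2A, a mark linked to gene silencing. Mice without it have few blood stem cells and lymphocytes, and their progenitors show an active p53 response. The transcription factor p53 answers DNA damage and other stress by raising genes for cell cycle arrest, repair, feedback and death. Puma, encoded by Bbc3, is one of those death genes: its protein binds the survival proteins of the Bcl2 family and so frees Bax and Bak to open the outer mitochondrial membrane. CD150-negative cells of this gate are mostly multipotent progenitors, which divide more often than stem cells and feed all blood lineages.

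The 12 libraries held 28066870 to 54339749 counted reads, and the double-knockout libraries 37326048 to 37496753. Kit and Slamf1 fitted the sort label. The stem cell factor receptor Kit had 444 to 631 CPM (counts scaled to the library total). Slamf1, which encodes CD150, had 0.216 to 2.29 CPM against 16.7 to 22.5 CPM in the wild-type CD150-positive libraries. Ly6a, which encodes Sca1, had 17.28, 27.38 and 14.6 CPM in B1, B3 and B5. In D2, D3 and D4 it had 7.34, 10.4 and 9.276 CPM (edgeR adjusted p = 0.0645, 0.0427 without A3, 0.04 without B5). Each A library was also above each C and D library. The receptor gene Flt3 had 264 and 305.3 CPM in A1 and A2 and 540.2 to 776.7 CPM in the other libraries. Whether the sorted cells matched across genotypes was not tested. B1 stood apart from B3 and B5, with the highest summed level of 1467 chemosensory receptor genes, which served as a measure of background reads. It had 4833 CPM, against 2735 and 3023 in B3 and B5 and 2084 to 4084 over the D libraries. A3 stood apart from A1 and A2, with the lowest such level (1055 CPM against 3039 and 3134). Its summed level of erythroid genes was higher (969 CPM against 494 and 428). Apart from the values of Kit, Slamf1, Ly6a and Flt3, all CPM here and below were scaled by trimmed mean of M-values (TMM). Nothing in the labels ties the 3 libraries of a genotype to separate mice, and a p-value here covers their spread alone, technical or not. In bulk RNA, fewer cells of a type and less RNA of a gene per cell cannot be told apart.

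Of 21168 genes tested by edgeR's quasi-likelihood method (called at a Benjamini-Hochberg adjusted p under 0.05), 149 (0.704%) rose and 341 (1.61%) fell in the double-knockout cells, and the rises and falls came from different groups of genes. The rises included 22 p53 targets. The falls included 57 histone genes, 51 mitosis genes, 38 genes of cytosolic ribosomal proteins and 14 DNA replication genes. In each of the 490 called genes the 3 double-knockout libraries lay outside the range of the 3 wild-type libraries, which was also true of 9.61% (higher) and 9.74% (lower) of all tested genes. The rises had a median log2 fold change of 1.05 and the falls one of -0.88, and 77 rises and 107 falls were 2-fold or more. The split leaned on the scaling: with library totals in place of TMM, which moved the median of all genes from 0.02 to 0.17, 352 genes were called higher and 279 lower. Leaving out 1 library gave 258 calls without B1, 292 without B3, 250 without D2 and 261 without D3.

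**Figure D1:**
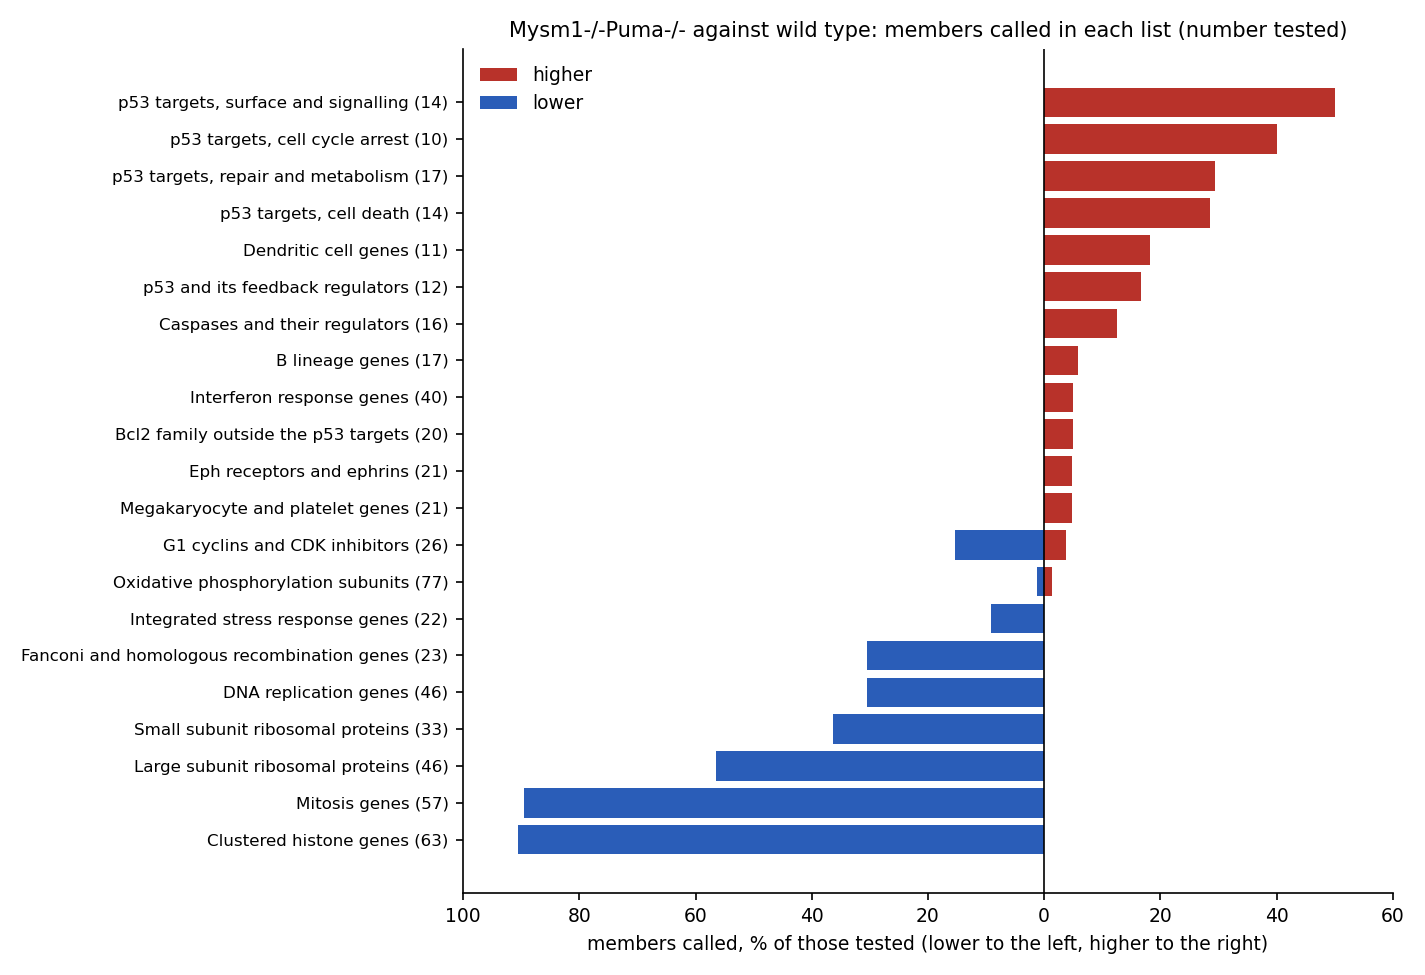
Share of the tested members of each gene list that were called between the double-knockout and the wild-type libraries, with the number tested in brackets, falls to the left in blue and rises to the right in red. Lists without a called member are not drawn. Mitosis and histone genes reach furthest to the left and the p53 target lists furthest to the right.

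Mysm1 itself (mouse build mm9, chromosome 4, bases 94608731 to 94645791, minus strand) had 74.1, 67.4 and 69.6 CPM in B1, B3 and B5 and 109.9, 102.6 and 100.2 CPM in D2, D3 and D4. Each double-knockout library lay below each wild-type library, but the log2 fold change of -0.57 ± 0.15 (SE) missed the threshold (adjusted p = 0.0557). Without A1 or A3 it was called, at adjusted p = 0.0334 and 0.0133. Bbc3 (chromosome 7, bases 16894965 to 16903554, plus strand) had 20.2, 26.0 and 29.7 CPM in B1, B3 and B5 and 4.29, 8.10 and 7.14 CPM in D2, D3 and D4. Its transcript was thus higher in every library labelled Puma-/- and Mysm1-/- than in any wild-type library, with a log2 fold change of 1.95 ± 0.28 (adjusted p = 0.000747). Which exons are missing from the 2 mutant alleles was not stated, so whole-gene counts are no check of the genotypes, and a Bbc3 transcript in these libraries says nothing of PUMA protein.

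Of 14 tested genes in the list of p53 targets of cell death, 4 rose and 0 fell, with a median log2 fold change of 0.41 against 0.02 over all genes. Besides Bbc3 these were Pmaip1, Bax and Aen. Pmaip1, which encodes NOXA, another trigger of mitochondrial death, had 7.89, 14.0 and 15.2 CPM in B1, B3 and B5 and 3.27, 1.26 and 2.29 CPM in D2, D3 and D4. B1 was the lowest of the double-knockout libraries and still above all 3 wild-type ones, and the log2 fold change was 2.46 ± 0.34 (adjusted p = 0.000644). Bax, the pore-forming protein that acts after PUMA, had 29.2, 38.2 and 39.9 CPM against 14.6, 16.3 and 15.2 CPM, a log2 fold change of 1.22 ± 0.16 (adjusted p = 0.000465). Aen, a nuclease that acts in dying cells, had 94.9, 103.6 and 111.4 CPM against 58.7, 77.4 and 62.5 CPM, a smaller rise of 0.64 ± 0.14 on the log2 scale (adjusted p = 0.0186). The call of Aen ended without B3, B5, D2 or D4, where its log2 fold change was 0.64, 0.58, 0.56 and 0.60.

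The arrest genes gave some of the largest rises. Of 10 tested, 4 rose and 0 fell, with a median of 0.71. Cdkn1a, the cyclin-dependent kinase inhibitor p21 (chromosome 17, bases 29227924 to 29237667), had 25.5, 32.3 and 26.8 CPM in B1, B3 and B5 and 2.33, 2.44 and 2.35 CPM in D2, D3 and D4. The wild-type libraries hardly differed from each other, and the log2 fold change was 3.57 ± 0.23 (adjusted p = 1.31e-07). Psrc1, a microtubule-binding protein, had 78.4, 85.7 and 82.0 CPM against 19.1, 19.3 and 17.1 CPM (2.15 ± 0.13, adjusted p = 7.7e-08). Ccng1, which encodes cyclin G1, a partner of phosphatase 2A that acts on Mdm2, had 198.5, 223.8 and 249.9 CPM against 70.4, 78.9 and 71.4 CPM (1.61 ± 0.13, adjusted p = 2.35e-06). Both groups were tight in these 3 genes and far from overlapping. Btg2, an antiproliferative cofactor of RNA decay, had 35.2, 61.8 and 37.7 CPM against 19.7, 24.2 and 26.4 CPM (0.94 ± 0.21, adjusted p = 0.0197). B3 was its highest library, and the call ended without B3, D2 or D3 (0.64, 0.83 and 0.99).

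The windows of 250 bases before the annotated start were read for 4 of these genes from RefSeq's GRCm38.p6 table, to show where the best match to the p53 response element lies. The p53 response element was taken as a pair of decamers with their C and G core letters fixed, up to 3 mismatches in 20 bases and a spacer of at most 1 base, on both strands. The matched bases are in capitals. The Cdkn1a window is chr17:29090729-29090978 on the plus strand, that of Ccng1 is chr11:40755287-40755536 on the minus strand, that of Bax is chr7:45466899-45467148 on the minus strand and that of Bbc3 is chr7:16309333-16309582 on the plus strand.
Cdkn1a: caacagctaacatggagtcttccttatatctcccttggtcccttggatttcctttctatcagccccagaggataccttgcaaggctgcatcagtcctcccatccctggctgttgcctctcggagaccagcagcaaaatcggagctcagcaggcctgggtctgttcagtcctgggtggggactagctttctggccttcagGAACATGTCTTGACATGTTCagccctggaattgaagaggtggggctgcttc
Ccng1: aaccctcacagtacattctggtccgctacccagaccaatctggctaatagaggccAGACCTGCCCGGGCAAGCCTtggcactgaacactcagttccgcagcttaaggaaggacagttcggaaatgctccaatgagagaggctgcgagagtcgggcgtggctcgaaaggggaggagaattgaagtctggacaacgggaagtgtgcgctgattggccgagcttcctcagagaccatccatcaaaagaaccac
Bax: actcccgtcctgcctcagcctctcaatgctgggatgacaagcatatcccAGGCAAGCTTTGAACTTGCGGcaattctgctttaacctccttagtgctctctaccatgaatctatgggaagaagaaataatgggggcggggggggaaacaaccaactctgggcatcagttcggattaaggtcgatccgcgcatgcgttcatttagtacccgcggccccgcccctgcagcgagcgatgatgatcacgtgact
Bbc3: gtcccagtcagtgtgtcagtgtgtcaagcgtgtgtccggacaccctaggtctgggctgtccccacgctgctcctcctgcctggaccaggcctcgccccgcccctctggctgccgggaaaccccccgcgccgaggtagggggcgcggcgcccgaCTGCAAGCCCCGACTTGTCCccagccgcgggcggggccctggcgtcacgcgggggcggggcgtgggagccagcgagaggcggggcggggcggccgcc
The match of Cdkn1a begins 51 bases before the window's end and that of Ccng1 195 bases before it, each with 1 mismatch. Bax has 2 mismatches and a spacer of 1 base, and its match holds the letters TTTGAA searched for further on, while Bbc3 has 3 mismatches. Of 15270 tested genes with a window, 2.72% held such a match, against 11 of 51 genes of the p53 lists (21.6%) and 5 of the 18 called ones (27.8%). These counts describe letters in a window and not binding.

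**Figure D2:**
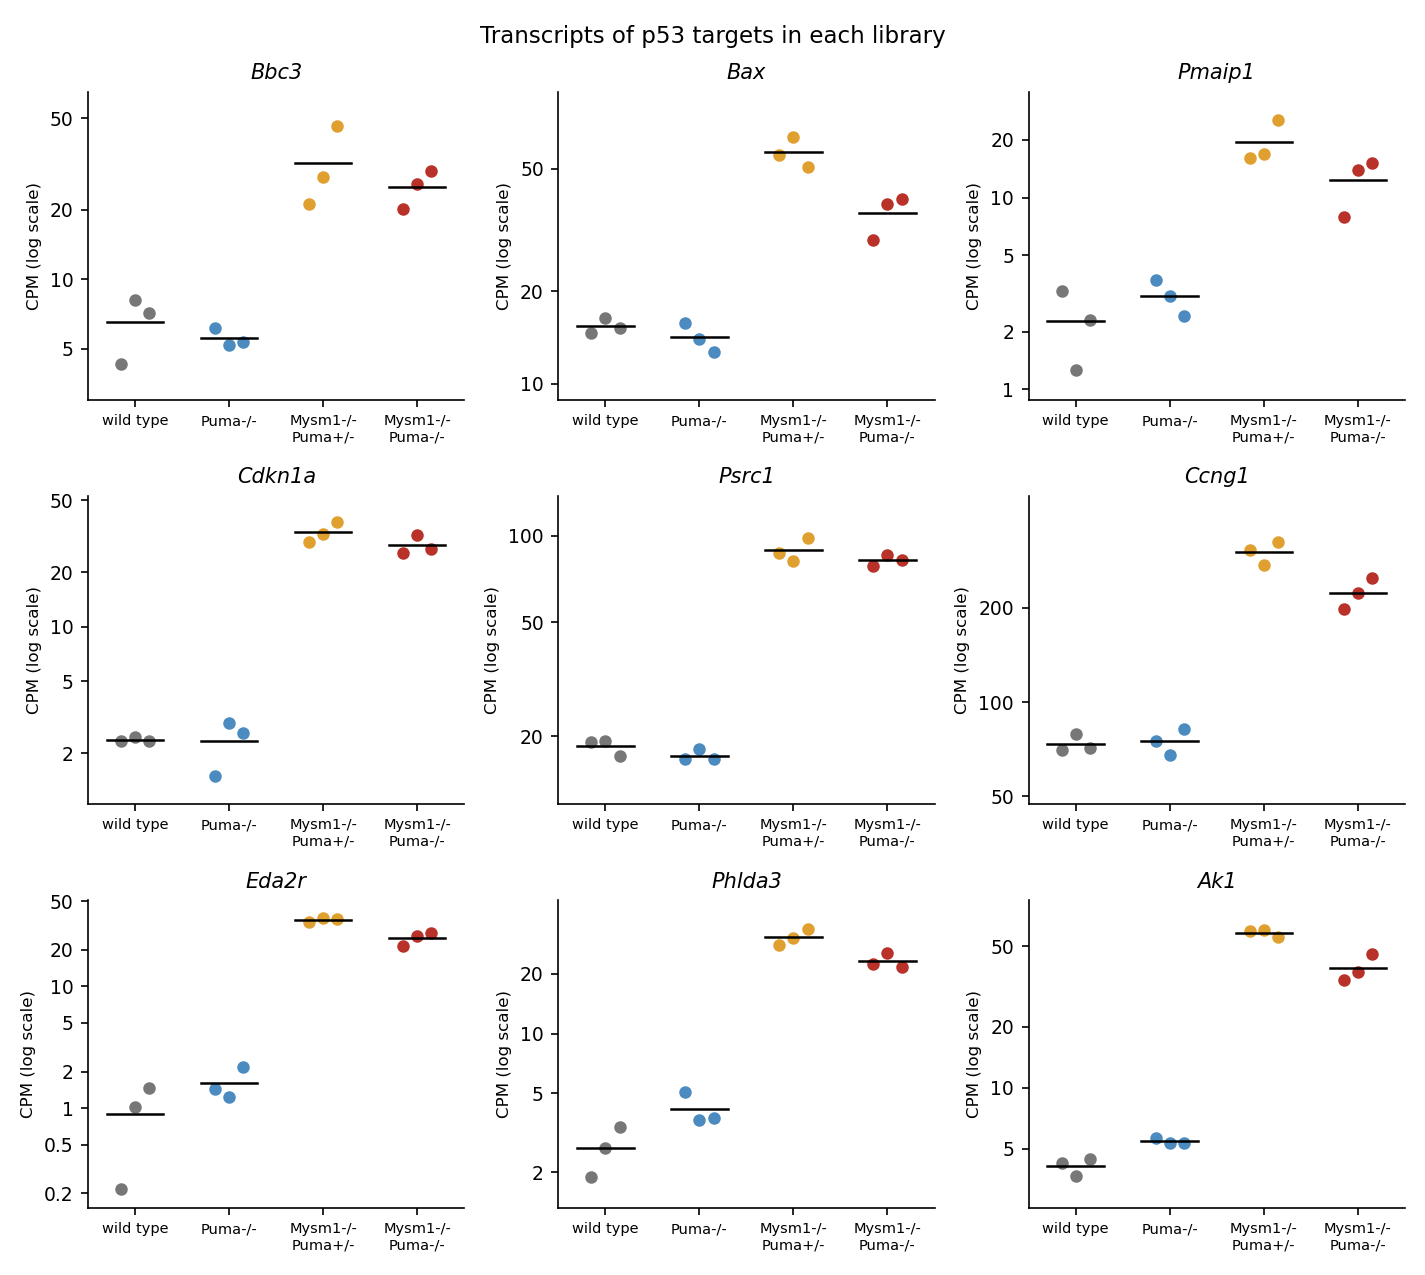
CPM on a log scale in each of the 12 CD150-negative libraries (points) and the mean of each genotype (bar) for 9 p53 targets. In each panel the 3 double-knockout points (red) lie above the wild-type (grey) and Puma-/- (blue) points, for Bbc3 between 20.2 and 29.7 CPM.

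Regulators of p53 itself moved less. Of 12 tested, 2 rose and 0 fell. Trp53inp1, a stress protein that promotes autophagy and death, had 254.3, 388.6 and 248.2 CPM in B1, B3 and B5 and 61.5, 104.5 and 85.7 CPM in D2, D3 and D4 (log2 fold change 1.82 ± 0.23, adjusted p = 0.000379). Mdm2, the ubiquitin ligase that degrades p53, had 115.2, 154.1 and 124.5 CPM against 83.9, 87.7 and 86.4 CPM (0.61 ± 0.14, adjusted p = 0.0219). The rise of Mdm2 was small beside that of Cdkn1a, and its call ended without B3, D2, D3 or D4 (0.48, 0.59, 0.65 and 0.61). Trp53, which encodes p53, stood at -0.40 ± 0.15 (adjusted p = 0.249) and its inhibitor Mdm4 at 0.60 ± 0.18 (adjusted p = 0.113), so neither passed the test.

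Among 17 p53 targets of repair and metabolism, 5 rose and 0 fell. Sesn2, a sestrin that restrains growth signalling under stress, had 8.46, 16 and 14.1 CPM in B1, B3 and B5 and 3.02, 3.96 and 3.48 CPM in D2, D3 and D4 (1.88 ± 0.29, adjusted p = 0.00122). The other 4 were the excision repair nuclease Ercc5 (0.76), the bypass polymerase Polk (0.81), the carnitine transferase Cpt1c (2.54) and the growth inhibitor Ddit4 (0.96). Sesn2 was called with any 1 library left out, while the count of the list was 3 without A1, A2 or B5, 2 without B1, B3 or D2, and 1 without D3 or D4.

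Of the 5 p53 lists, that of the cell surface and signalling had the largest median log2 fold change, 2.57, and 7 of its 14 genes rose and 0 fell. The lists were chosen with earlier results of these data known, so this rank is a description only. Eda2r, a death receptor relative that binds ectodysplasin A2, had the largest change of any gene that met the level criterion. Its transcript had 21.3, 25.8 and 27.6 CPM in B1, B3 and B5 and 0.218, 1.02 and 1.46 CPM in D2, D3 and D4, a log2 fold change of 4.72 ± 0.38 (adjusted p = 1.32e-06). It stood below 2 CPM in each wild-type library. Epha2, an ephrin receptor kinase, had 36.1, 37.5 and 30.4 CPM against 2.54, 3.49 and 2.67 CPM (3.57 ± 0.24, adjusted p = 2e-07). Ak1, an adenylate kinase whose gene overlaps the endothelial gene Eng on the same strand in the mm9 annotation, had 33.9, 37.4 and 45.6 CPM against 4.25, 3.65 and 4.46 CPM (3.24 ± 0.17, adjusted p = 8.09e-09). Phlda3, a repressor of the survival kinase Akt, had 22.5, 25.5 and 21.6 CPM against 1.89, 2.66 and 3.38 CPM (3.12 ± 0.23, adjusted p = 3.15e-07). The other 3 were the noncoding RNA Pvt1 (3.54), the heparan sulphatase Sulf2 (2.94) and the matrix protease Mmp2 (2.41). Over all 5 lists 22 of 67 targets rose and 0 fell, and the surface list kept at least 7 calls under each alternative tried.

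Genes of cell division were lower in the double-knockout cells. Of 57 tested mitosis genes 51 fell and 0 rose, with a median log2 fold change of -0.97. The mean log2 CPM over the list was 5.27, 5.70 and 5.68 in B1, B3 and B5 and 6.57, 6.44 and 6.37 in D2, D3 and D4. B1 was the lowest library and the groups were well apart. Espl1, the separase that cuts cohesin at anaphase, had 22.9, 21.9 and 23.2 CPM against 52.8, 44.0 and 50.8 CPM (-1.12 ± 0.16, adjusted p = 0.000625). Ccna2, which encodes cyclin A2 and overlaps Exosc9 in the annotation, had 38.0, 51.1 and 54.9 CPM against 119.4, 109.5 and 99.97 CPM (-1.19 ± 0.17, adjusted p = 0.000654). Mki67, the proliferation antigen Ki-67, had 509, 744 and 632 CPM against 1509, 1276 and 1155 CPM (-1.06 ± 0.16, adjusted p = 0.00117). All 3 were at less than their lowest wild-type value in each double-knockout library. Further falls were those of the passenger complex subunit Incenp (-0.92), the centrosome kinase Nek2 (-1.11), the spindle pole protein Aspm (-1.08) and the cohesin protector Cdca5 (-1.31). Of the 6 members not called, Pttg1 and Hmmr had overlapping groups (-0.06 and -0.16), while Bub3, Cdc25c, Ect2 and Ube2c lay lower in all 3 libraries. Without B1 36 members fell, and without D2 32 did. B1, the lowest library of this list, also had the most chemosensory background. With that level as a covariate in the fit 54 mitosis and 57 histone genes were called, and all 490 called genes stayed called. That fit called 835 genes in all, 379 higher and 456 lower. The part of background reads in these falls was not tested.

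Promoters of mitosis genes often carry the CHR element, with the letters TTTGAA, and the CCAAT box. Both were searched on both strands in the same windows, since 51 members fell together. Their letters are in capitals for Espl1 (chr15:102296043-102296292, plus strand) and Mki67 (chr7:135716380-135716629, minus strand).
Espl1: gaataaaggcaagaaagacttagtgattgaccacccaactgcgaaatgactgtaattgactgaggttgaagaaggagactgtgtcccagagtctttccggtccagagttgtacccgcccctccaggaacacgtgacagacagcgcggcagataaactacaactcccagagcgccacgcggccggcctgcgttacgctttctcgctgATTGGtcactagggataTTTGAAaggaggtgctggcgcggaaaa
Mki67: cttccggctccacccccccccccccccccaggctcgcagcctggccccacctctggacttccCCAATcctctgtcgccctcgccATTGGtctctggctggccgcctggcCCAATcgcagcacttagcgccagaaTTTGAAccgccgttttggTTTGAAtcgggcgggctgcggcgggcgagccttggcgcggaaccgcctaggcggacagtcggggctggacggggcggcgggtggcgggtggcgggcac
Espl1 holds TTTGAA 27 bases before the window's end and the reverse of CCAAT 44 bases before it. Mki67 holds 2 copies of TTTGAA and 3 of CCAAT or its reverse. TTTGAA was found in 17 of 47 mitosis genes with a window (36.2%) against 15.3% of all windows, and CCAAT in 34 of 47 (72.3%) against 39%. DNA replication genes held CCAAT in 24 of 37 windows (64.9%) and TTTGAA in 5 (13.5%). Genes of the p53 lists held CCAAT in 28 of 51 windows (54.9%), and the called ones, which rose, in 12 of 18 (66.7%). CCAAT was thus not particular to the lists that fell.

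Clustered histone genes, which are transcribed in S phase to package new DNA, fell as broadly. Of 63 tested 57 fell and 0 rose, with a median log2 fold change of -1.09. The mean log2 CPM over the list was 7.52, 7.99 and 8.14 in B1, B3 and B5 and 8.90, 9 and 8.74 in D2, D3 and D4. Again B1 was lowest and no double-knockout library reached the wild-type range. Hist1h1b, a linker histone, had 87.4, 120.6 and 135.3 CPM against 344.1, 339.4 and 274.6 CPM (-1.48 ± 0.16, adjusted p = 7.02e-05). Hist1h3d (-1.27), Hist1h3b (-1.24) and Hist1h1a (-1.2) fell alike. Hist2h2be, a member that stood at 0.11 (adjusted p = 0.966), and Hist4h4 (-0.16) were among the 6 not called. Copies of this family are near-identical, so reads could be split between them and single members are uncertain. Without B1 56 members fell.

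DNA replication genes were lower by less. Of 46 tested 14 fell and 0 rose, and 44 had a log2 fold change below 0, with a median of -0.64. Mcm10, an initiation factor, had 37.4, 49.1 and 62.5 CPM in B1, B3 and B5 and 114.4, 93.1 and 79.9 CPM in D2, D3 and D4 (-0.95 ± 0.19, adjusted p = 0.00906). Rrm1, the large subunit of ribonucleotide reductase, had 134.5, 192.8 and 220.9 CPM against 374.1, 355.7 and 290.2 CPM (-0.90 ± 0.19, adjusted p = 0.0141). The ligase Lig1 (-0.98), the flap nuclease Fen1 (-0.84), the DNA methylation reader Uhrf1 (-0.96) and the helicase subunit Mcm4 (-0.74) also fell. The count rested on single libraries: 26 members were called without A3, 6 without B3, 2 without D2, 2 without D3 and 1 without B1.

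Of 23 genes of the Fanconi pathway and homologous recombination, which mend breaks and crosslinks in replicating DNA, 7 fell and 0 rose. Brca1 had 49.1, 67.7 and 65.1 CPM in B1, B3 and B5 and 116.6, 110.3 and 101.0 CPM in D2, D3 and D4 (-0.85 ± 0.15, adjusted p = 0.00391). Each double-knockout library lay below each wild-type library. The list gave 3 calls without B1 or D2 and 4 without D3. Among 26 regulators of G1 phase 4 fell, namely cyclin E1 (Ccne1, -1.27) and the E2F factors E2f2 (-1.07), E2f7 (-1.02) and E2f8 (-0.96), and 1 rose, the pocket protein Rbl2 (0.57). That list gave 9 calls without A3 and 3 without B1, D2, D3 or D4.

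Transcripts of cytosolic ribosomal proteins were lower too, by a median log2 fold change of -0.59 over 79 genes, of which 38 fell and 0 rose. The large subunit accounted for 26 of 46 (median -0.68) and the small subunit for 12 of 33 (median -0.37). The mean log2 CPM of the large subunit was 8.39, 8.72 and 8.86 in B1, B3 and B5 and 9.18, 9.47 and 9.16 in D2, D3 and D4. D3 was the highest library, and without it 23 of the 79 were called. Rpl36a had 167.2, 218.9 and 237.6 CPM against 455.6, 637.1 and 511 CPM (-1.36 ± 0.16, adjusted p = 0.000122). Rps15 had 162.3, 215.2 and 217 CPM against 368.8, 461.9 and 416 CPM (-1.07 ± 0.14, adjusted p = 0.000507). In both genes each double-knockout library lay below each wild-type library. Rpl22l1, a paralog of Rpl22, had 12.4, 14.0 and 15.7 CPM against 36.3, 47.5 and 33.4 CPM (-1.48 ± 0.19, adjusted p = 0.000379), while Rpl22 stood at -0.16 (adjusted p = 0.799). Pseudogene copies of ribosomal protein genes are many, so single members are uncertain. Genes of mitochondrial ribosomal proteins gave 0 calls of 73 with edgeR, although 67 were below 0 (median -0.25) and 15 had an unadjusted p under 0.05, with 4 calls by DESeq2 and 4 by limma voom. Ribosome biogenesis factors gave 0 of 33 (9 at an unadjusted p under 0.05, 1 call by DESeq2, 2 by limma voom).

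**Figure D3:**
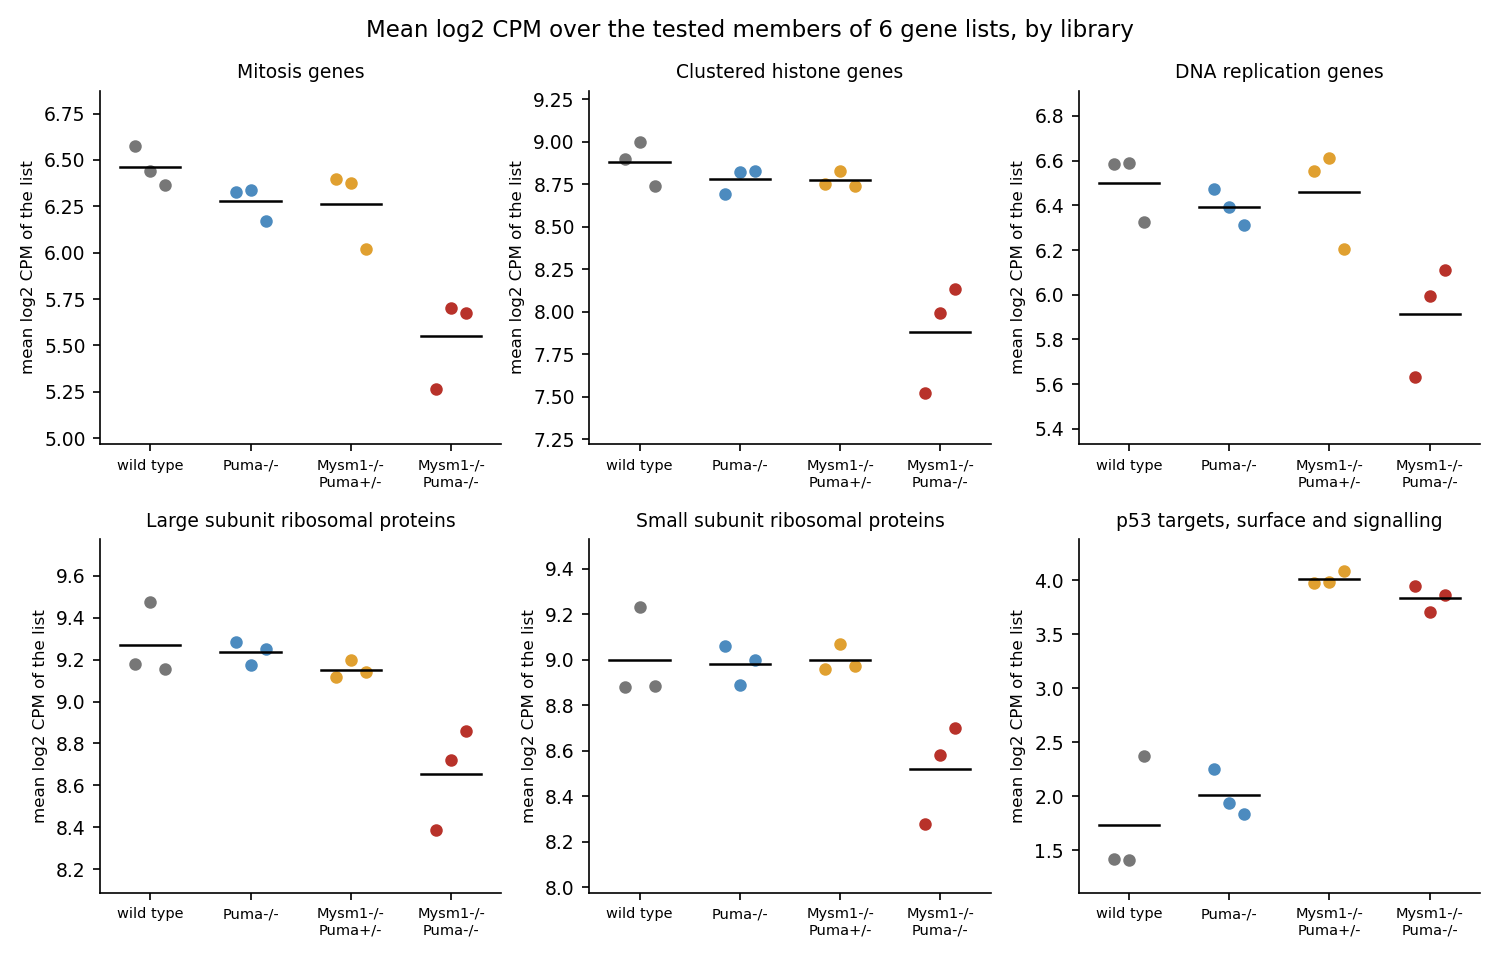
Mean log2 CPM over the tested members of 6 gene lists in each library (points), with the mean of each genotype (bar). The double-knockout libraries (red) are lowest in the 5 lists of division and translation, with B1 the lowest of all, and high together with Mysm1-/-Puma+/- (orange) in the p53 list. The axes do not start at 0.

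Of the 12 largest rises among genes averaging a log2 CPM of 2 or more, 4 were in no p53 list. Tnfsf4, which encodes OX40 ligand, had 16.4, 17.5 and 20.6 CPM in B1, B3 and B5 and 0.836, 1.18 and 1.97 CPM in D2, D3 and D4 (3.75 ± 0.56, adjusted p = 0.00108). Serpine2, a secreted protease inhibitor, had 36.0, 46.7 and 56.6 CPM against 6.4, 5.72 and 6.36 CPM (2.92 ± 0.21, adjusted p = 3.12e-07). Zfp365 had 9.28, 10.1 and 12.3 CPM against 1.2, 1.24 and 2.75 CPM (2.60 ± 0.41, adjusted p = 0.00162). In these 3 genes each double-knockout library lay well above each wild-type library. Igj, the joining chain of polymeric antibodies, varied more within the double-knockout group. It had 569, 1365 and 138 CPM against 59.4, 135.4 and 119.4 CPM (2.72 ± 0.58, adjusted p = 0.0166), so that B5 lay just above D3. Its call ended without B3, D2 or D4 (adjusted p = 0.134, 0.105 and 0.055).

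Among the 12 largest falls, Hnf4a, a nuclear receptor best known from liver, had 13.8, 19.6 and 15.6 CPM in B1, B3 and B5 and 42.2, 54.3 and 50.7 CPM in D2, D3 and D4 (-1.59 ± 0.17, adjusted p = 4.21e-05). Its gene overlaps a noncoding transcript on the other strand. The elongation factor subunit Eef1g had 321.7, 398.7 and 464.2 CPM against 966.7, 1130 and 869 CPM (-1.32 ± 0.16, adjusted p = 0.000161). The histone chaperone Asf1b had 3.05, 4.83 and 4.48 CPM against 9.20, 10.6 and 10.6 CPM (-1.30 ± 0.23, adjusted p = 0.00432). In all 3 the groups were apart. Rftn2 (-1.72), Spire1 (-1.38), Sapcd2 (-1.37) and Nt5dc2 (-1.33) completed the largest falls outside the lists. The calls of Rftn2, Spire1 and Sapcd2 each ended when 1 library was left out: Rftn2 without B1, B5, D3 or D4 (-1.63, -1.62, -1.65 and -1.62), Sapcd2 without B1, B5, D2 or D4 (-1.25, -1.29, -1.31 and -1.28), and Spire1 without any 1 of the 6 B and D libraries (-1.30 to -1.42).

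Other parts of the death machinery gave few calls. Of 20 Bcl2 family genes outside the p53 lists only Bcl2l11, which encodes the PUMA-like protein BIM, rose (32.4, 38.5 and 27.0 CPM against 20.7, 18.1 and 16, log2 fold change 0.84 ± 0.17, adjusted p = 0.013). Its call ended without B1, B3, D3 or D4 (0.84, 0.71, 0.87 and 0.76). Of 16 caspases and their regulators Casp1 (0.75) and Casp12 (0.88), both of the inflammatory class, rose. That list gave 0 calls without B3, B5, D2 or D4 and 1 without B1 or C5.

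Markers of other blood cells gave few calls but were not level between the groups. Of 11 dendritic cell genes 2 rose, Cd74 (95.2, 133.9 and 62.4 CPM in B1, B3 and B5 against 20.9, 36.5 and 25.9 CPM in D2, D3 and D4, 1.80 ± 0.34, adjusted p = 0.00628) and H2-Eb1 (43.7, 46.6 and 44.1 CPM against 9.67, 12.0 and 10.7 CPM, 2.05 ± 0.42, adjusted p = 0.0114). Both belong to antigen presentation by class II molecules, which B cells share. The summed level of the list was 258 to 344 CPM in the double-knockout and 122 to 149 CPM in the wild-type libraries, and its count was 0 without D2, 1 without D3 and 4 without A1, A2 or A3. The defining genes Xcr1 (0.23), Clec9a (0.40) and Batf3 (0.03) had overlapping groups, and Zbtb46 (-0.91) was lower. The B lineage list summed to 274 to 1607 CPM against 180 to 279 CPM, with Igj its only call of 17. Igj, at the levels given above, made up most of the sums of B1 and B3 (770 and 1607 CPM). The sum of B5, 274 CPM, lay within the wild-type range. Erythroid genes gave 0 calls of 17 with edgeR (4 at an unadjusted p under 0.05), 0 with DESeq2 and 5 with limma voom. Yet 10 of the 17 had lower ranges, against 9.74% of all tested genes. Their sum was 489 to 570 CPM against 658 to 711 CPM, 4 of 21 listed members were at 0 in all double-knockout libraries and 3 in all wild-type ones, and without A3 5 were called, among them Gata1 (-1.84) and Car1 (-2.06). The part of erythroid cells in the lower division genes was not tested. Of 21 megakaryocyte genes Selp rose (1.16, adjusted p = 0.0427), with a list sum of 497 to 529 against 424 to 487 CPM and the call of Selp ended without A2, B1, B3, B5, C5, D3 or D4 (adjusted p = 0.051 to 0.216). Granulocyte and monocyte genes gave 0 calls of 22 with edgeR (4 at an unadjusted p under 0.05, 1 call by DESeq2 and 3 by limma voom), T and NK cell genes 0 of 15 (2, 1 and 0), mast cell, basophil and eosinophil genes 0 of 9 (1, 0 and 0) and endothelial genes 0 of 8 (3, 1 and 0).

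Interferon response genes leaned upward. Of 40 tested 35 had a log2 fold change above 0, with a median of 0.44. Of the 40, 18 had higher ranges, against 9.61% of all tested genes. Only 2 rose (5%, against 0.704% of all tested genes). Nlrc5, the activator of class I antigen presentation genes, had 178.4, 197.4 and 172.9 CPM in B1, B3 and B5 and 103.4, 118.4 and 85.4 CPM in D2, D3 and D4 (0.84 ± 0.19, adjusted p = 0.028). Zbp1, a sensor of nucleic acids, had 13.1, 15.6 and 11.9 CPM against 5.71, 6.90 and 5.57 CPM (1.16 ± 0.29, adjusted p = 0.0455). The count was 0 without B1, B3, D2 or D4, 1 without A2, B5, C2, C3, C5 or D3, and 8 without A3. Of 22 genes of the integrated stress response 2 fell, the folate enzyme Mthfd2 (-1.02) and the amino acid carrier Slc7a5 (-0.74), with 0 calls without B1 or D2. Of 77 subunits of oxidative phosphorylation Cox6b2 rose (26.1, 40.6 and 40.1 CPM against 14.4, 11.1 and 11.1, 1.55 ± 0.21, adjusted p = 0.000507) and Atp5o fell (-0.59, adjusted p = 0.0455), and 72 were below 0. The call of Atp5o ended without A1, B1, B3 or any 1 of the C and D libraries (adjusted p = 0.0518 to 0.267).

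Lists of stem cell identity gave no call with edgeR in the double-knockout cells. Stem cell transcription factors had 0 calls of 23, with 4 genes at an unadjusted p under 0.05, 1 call by DESeq2 and 3 by limma voom. In the same order, stem cell surface and niche genes had 0 of 17 (5, 2 and 2), lymphoid priming genes 0 of 22 (5, 1 and 1) and writers and erasers of histone H2A ubiquitin, the mark on which MYSM1 acts, 0 of 32 (2, 1 and 1). The 9 genes linked to Mysm1 in blood cells gave 0 calls in all 3 (0 at an unadjusted p under 0.05). Immediate early genes had 0 of 21 (1, 0 and 0), antioxidant genes 0 of 11 (1, 1 and 1), SOCS cytokine feedback genes 0 of 8 (1, 0 and 0) and snoRNA host genes 0 of 9 (2, 1 and 0), and of 21 Eph receptors and ephrins only Epha2 rose.

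The other groups placed these changes. Puma loss alone, in the Puma-/- libraries against wild type, gave 0 calls of 21168 genes (0%) with edgeR, 324 genes at an unadjusted p under 0.05, 2 calls with DESeq2 and 0 with limma voom. Mysm1 loss with 1 Puma allele left, in the Mysm1-/-Puma+/- libraries against the same wild-type libraries, gave 135 rises (0.638%) and 49 falls (0.231%). Without A3 it gave 156 rises and 172 falls, and with the chemosensory receptor level as a covariate 211 and 185. Its p53 lists had 23 rises and 0 falls of 67. The double-knockout cells against Puma-/- cells, both without Puma, gave 87 rises (0.411%) and 198 falls (0.935%), with 18 p53 rises. With library totals in place of TMM it gave 170 higher and 165 lower.

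The 2 comparisons of Mysm1 loss that share no library, with and without Puma alleles in both of their groups, are set side by side. The 58 rises called in both were 43% of the 135 with Puma alleles and 66.7% of the 87 without. The 10 falls called in both were 20.4% of the 49 and 5.05% of the 198. These shares rest on counts that move with the setting, as given above, and the difference between rises and falls was not tested. Of the 135 rises 129 kept a positive sign in the comparison without Puma, at a median log2 fold change of 0.70 against 1.17 with it, and 45 of the 49 falls kept a negative sign (median -0.53 against -1.18). Both sets were chosen by their calls in the comparison with Puma alleles, which by itself enlarges their medians there. These medians thus cannot show whether the effects are smaller without Puma.

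**Figure D4:**
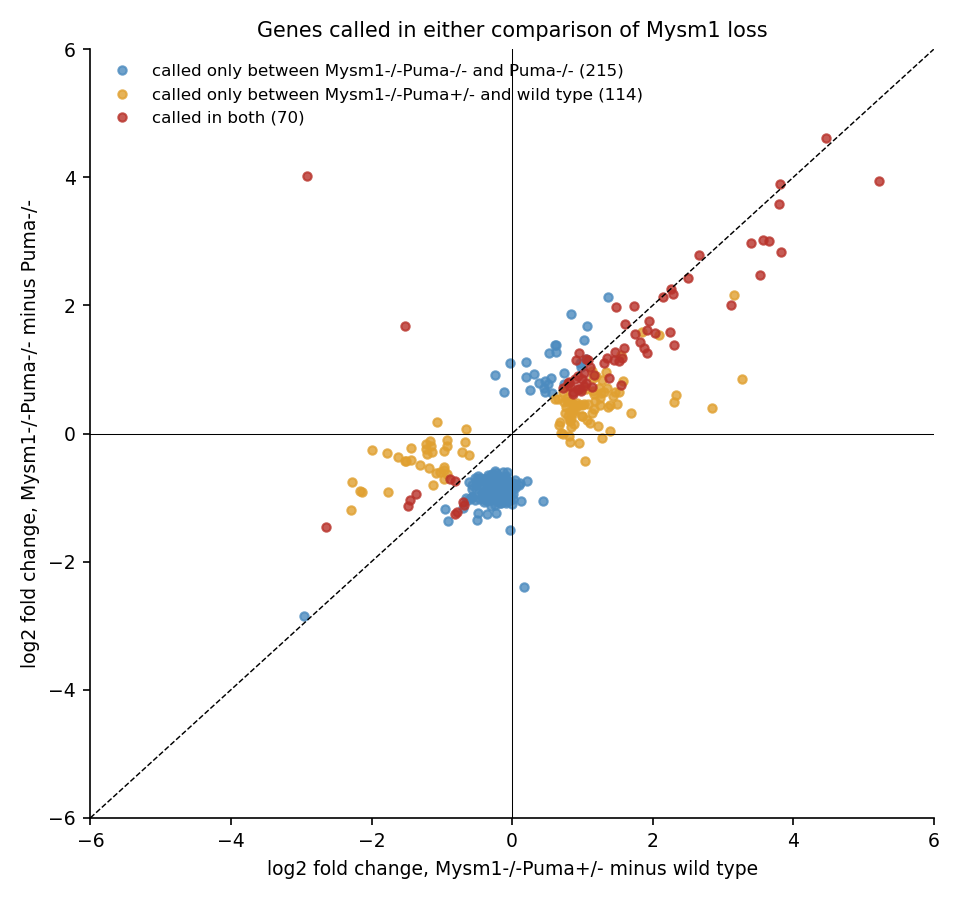
Log2 fold change of Mysm1-/-Puma+/- against wild type (horizontal) and of Mysm1-/-Puma-/- against Puma-/- (vertical) for genes called in 1 of them or both, with a dashed line of equal values. The 70 genes called in both (red) lie mostly at the upper right and include 2 in opposite directions at the upper left. The 215 genes called only without Puma (blue) form a cloud of falls near 0 on the horizontal axis, and 2 genes lie beyond the axes.

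The leading p53 targets rose both with and without a Puma allele left. Cdkn1a had a log2 fold change of 3.80 ± 0.24 in Mysm1-/-Puma+/- cells and 3.57 ± 0.23 in double-knockout cells against the shared wild type, and 3.59 ± 0.23 in double-knockout against Puma-/- cells. Its direct difference between both groups lacking Mysm1 was -0.23 ± 0.21 (adjusted p = 0.626). The 8 largest rises of Mysm1-/-Puma+/- cells, namely Eda2r, Tnfsf4, Ak1, Epha2, Cdkn1a, Serpine2, Pvt1 and Phlda3, spanned 3.52 to 5.22 on the log2 scale there and 2.48 to 4.61 in double-knockout against Puma-/- cells, 2 comparisons that share no library. None of the 8 was called between the 2 groups lacking Mysm1. The nearest to a difference were Serpine2 (-0.74, adjusted p = 0.0632) and Ak1 (-0.58, adjusted p = 0.0633), each lower in the double knockout. Both were called without A3 (-0.79 and -0.62) or without B5 (-0.91 and -0.71), and Serpine2 also without C2 or C3 (-0.74 and -0.77).

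Of the 67 genes of the p53 lists 3 were lower in the double knockout than in Mysm1-/-Puma+/- cells. Bax had 55.4, 63.3 and 50.5 CPM in A1, A2 and A3 against the 29.2 to 39.9 CPM of the double-knockout libraries, a difference of -0.66 ± 0.16 (adjusted p = 0.05 after rounding, just under the threshold before it). Siva1, a death-promoting adaptor, differed by -0.80 (adjusted p = 0.0323) and was not called against wild type in either group. Rps27l, a ribosomal protein paralog raised by p53, had 54.0, 50.9 and 40.1 CPM in A1, A2 and A3, 24.5, 26.0 and 30.5 CPM in B1, B3 and B5 and 20.8, 24.0 and 17.0 CPM in D2, D3 and D4. It rose with 1 Puma allele left (1.23 ± 0.19, adjusted p = 0.00191), stood at 0.39 ± 0.19 in the double knockout (adjusted p = 0.386) and differed between the 2 groups (-0.84 ± 0.19, adjusted p = 0.0375). All 3 calls ended without A1, A2, B1, B3 or D2. That of Bax also ended without C5, D3 or D4 and that of Rps27l without D3. Gtse1 and Plk2 rose in Mysm1-/-Puma+/- cells (1.03 and 2.09) and were not called in the double knockout (0.27 and 1.2), but their direct difference was not called either (adjusted p = 0.0633 and 0.215). Without A3 the difference of Gtse1 was called (-0.93, adjusted p = 0.0105). The rise of Gtse1 in Mysm1-/-Puma+/- cells was not called without A1, A2, D3 or D4, nor that of Plk2 without D2 or D3.

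The division genes were lowest in the double knockout. In Mysm1-/-Puma+/- cells edgeR called 0 of 57 mitosis genes (9 at an unadjusted p under 0.05, 2 calls by DESeq2, 5 by limma voom) and 0 of 63 histone genes (8, 1 and 4), at medians of -0.19 and -0.17. The mean log2 CPM of the mitosis list was 6.4, 6.37 and 6.02 in the A libraries (A1, A2, A3) and 6.33, 6.34 and 6.17 in C2, C3 and C5, all above the 5.27 to 5.70 of the double-knockout libraries. In Puma-/- against wild-type cells edgeR called 0 mitosis, histone or replication genes, yet 57 of 57 mitosis genes were below 0 (median -0.17). So were 61 of 63 histone genes (median -0.10) and 44 of 46 replication genes (median -0.12). The median over all genes was -0.01 there. Against Mysm1-/-Puma+/- cells 30 mitosis genes fell in the double knockout, with a median of -0.72, and 53 histone genes (median -0.90). Of 79 ribosomal protein genes only 5 fell there (median -0.49), and 1 was called with the chemosensory receptor level as a covariate. In Mysm1-/-Puma+/- cells against wild type 3 of the 79 fell. Against Puma-/- cells 34 mitosis genes fell (median -0.75), as did 53 histone genes and 34 ribosomal protein genes. The direct edgeR test of whether the effect of Mysm1 loss differs with Puma called 0 of 57 mitosis and 0 of 63 histone genes. The median differences were -0.53 and -0.79 on the log2 scale. Ccna2 fell by 1.04 on the log2 scale against Mysm1-/-Puma+/- (adjusted p = 0.00792, and 0.0736 without A2) and by 1.00 against Puma-/- cells (adjusted p = 0.00359). The comparison with Mysm1-/-Puma+/- rested on few libraries: without A2 it gave 0 mitosis and 0 histone calls, without A1 2 and 32, and without B1 3 mitosis calls. Without B3, D2, D3 or A3 there were 11, 15, 9 and 48 mitosis calls. Against Puma-/- cells 13 mitosis genes were called without B1, 9 without C2 and 16 without C3.

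Over all genes the direct comparison of both groups lacking Mysm1 gave 41 genes higher (0.194%) and 222 lower (1.05%) in the double knockout. With library totals in place of TMM it gave 52 higher and 80 lower. The count was 1 without A2, 47 without A1, 1086 without A3, 64 without B1, 89 without B3, 942 without B5, 115 without D2 and 113 without D3. A2 was the only library with high Xist, an RNA that coats the silent X chromosome of females (445.9 CPM, against 2.28 to 9.36 in the other 11 libraries) and the only one near 0 for the Y-linked Ddx3y (0.0823 CPM, against 92.5 CPM or more in the others), and the part of sex in this comparison was not tested.

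Several of the genes that differed most upward between the double-knockout and the Mysm1-/-Puma+/- cells were lowest in the latter. The comparisons of Mysm1-/-Puma+/- with wild type and with the double knockout share the A libraries, so each is given by its own values. Hnf4a had 7.63, 7.14 and 8.65 CPM in A1, A2 and A3 and 48.1, 42.1 and 44.7 CPM in C2, C3 and C5, so the double-knockout libraries lay between, and the 2 groups lacking Mysm1 differed by 1.06 ± 0.17 (adjusted p = 0.00792). Without A2 that difference was 1.04 at an adjusted p of 0.0736. Plag1, a zinc finger transcription factor, had 1.71, 2.80 and 4.34 CPM in A1 to A3, 6.89, 10.0 and 9.95 CPM in B1, B3 and B5 and 9.85, 15.7 and 13.2 CPM in D2 to D4. Its double-knockout libraries overlapped the wild type, and they differed from Mysm1-/-Puma+/- by 1.60 ± 0.34 (adjusted p = 0.0334). The cytoskeletal adaptor Obsl1 (1.52, adjusted p = 0.0313), Plxdc2 (1.35, adjusted p = 0.0408) and Pdzd4 (1.30, adjusted p = 0.0375) did likewise, and in the double knockout against wild type these 4 genes stood at -0.33 to -0.65 with no call. The differences of these 4 genes each missed the threshold without A1, A2, B1 or B3, that of Obsl1 also without C5 or D2, that of Pdzd4 without D2 or D3 and that of Plxdc2 without C5 or any 1 of the D libraries. Slc35d3, a member of the nucleotide sugar carriers, had 4.01, 5.76 and 9.86 CPM in A1 to A3 and 32.7, 27.5 and 22.3 CPM in the double-knockout libraries (2.07 ± 0.35, adjusted p = 0.00921), and its call ended without A1, A2 or B1 (1.81, 2.02 and 1.90).

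Of the genes called between both groups lacking Mysm1 that averaged a log2 CPM of 2 or more and whose groups did not overlap, Gem differed most downward. It encodes a small GTPase that restrains calcium channels. It had 115.1, 91.1 and 101.4 CPM in A1, A2 and A3 and 37.1, 37.9 and 28.5 CPM in B1, B3 and B5. The Puma-/- libraries had 27.8, 22.5 and 23.5 CPM and the wild-type libraries 14.9, 20.8 and 26.3 CPM, so only the Mysm1-/-Puma+/- libraries stood far apart. Its log2 fold change against wild type was 2.31 ± 0.19 with 1 Puma allele left and 0.74 ± 0.19 without (adjusted p = 1.73e-06 and 0.0463), and the direct difference was -1.57 ± 0.19 (adjusted p = 0.00413). The call of 0.74 ended without A1, B1, B3, C3, C5, D2 or D3 (adjusted p = 0.0526 to 0.226). The matrix protein Emilin2 (-1.48), the lectin Clec10a (-1.40) and the prostaglandin reductase Ptgr1 (-1.38) followed. The call of Emilin2 ended without A2 (-1.33), that of Ptgr1 without A1, A2 or B1 (-1.14 to -1.32), and that of Clec10a without A1, A2, B1, B3 or any 1 of the D libraries (-1.17 to -1.48). The test of whether the effect of Mysm1 loss differs between cells with and without Puma called 3 genes (0.0142%), Gem among them.

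**Figure D5:**
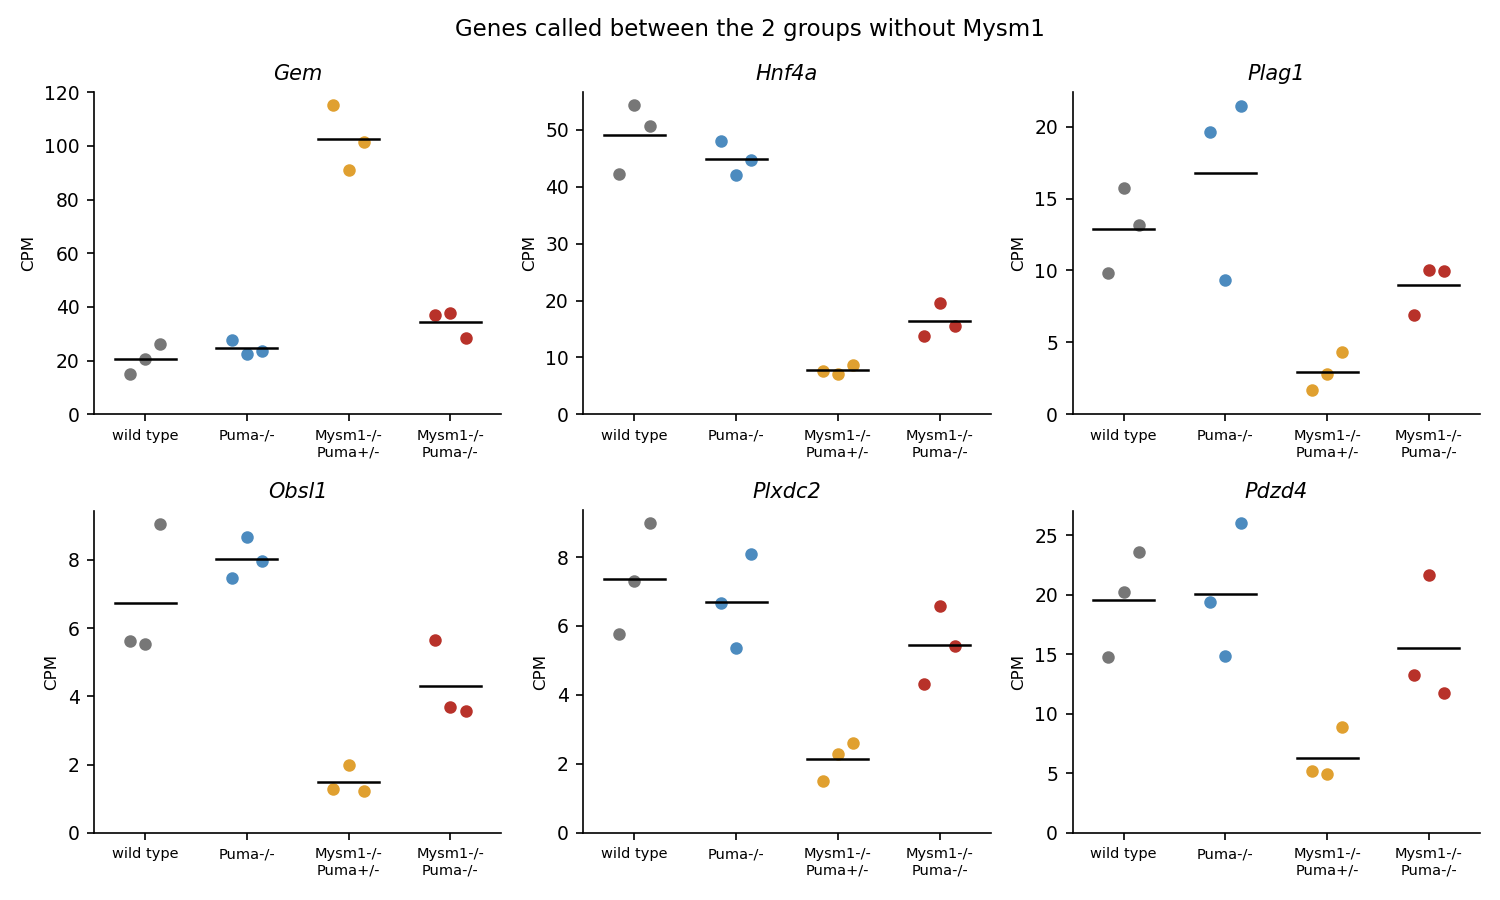
CPM in each library (points) and the mean of each genotype (bar) for 6 genes called between the double-knockout and the Mysm1-/-Puma+/- libraries. Gem is high at 91.1 to 115.1 CPM in the Mysm1-/-Puma+/- libraries (orange), and the other 5 genes are lowest there, with the double-knockout libraries (red) above them.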

How the data were processed

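RNA of 12 CD150-negative libraries, 3 for each of 4 genotypes, was analysed from raw read counts per gene that the authors deposited separately for each library. Per the labels' protocols, total RNA was depleted of ribosomal RNA, made into stranded low-input libraries and sequenced as read pairs. Per the submitters' processing notes, the tools were FastQC, Trimmomatic 0.33, TopHat2 2.0.9, Bowtie 1.0.0, featureCounts, edgeR and R 3.4.2, with genome build mm9, and the strand setting and annotation of the counting are not given in the sources used here. Where genes overlap or lie antisense, their reads could thus not be told apart. The authors also deposited a matrix of normalized CPM values, which was used in 1 alternative only.

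Counts were tested with edgeR 4.0.16 in R 4.3.3 (filterByExpr, TMM, quasi-likelihood F test, Benjamini-Hochberg adjustment over 21168 genes, threshold 0.05), with all 12 libraries in 1 fit and a contrast for each comparison. Standard errors (SE) are absolute log2 fold changes over the root of F. List means are of log2 CPM with a prior count of 2. Fold changes are fitted values and are compressed for genes of few counts. The fit was tested on simulated data. The members and the 38 gene lists (2423 entries, 4 of them not matched to the files) were chosen with earlier results of these data known. Genes were named by rule: Mysm1 and Bbc3, the 12 largest rises and 12 largest falls in the double knockout averaging a log2 CPM of 2 or more and groups that do not overlap, up to 6 called members of smallest p in each list, and the 8 or 4 largest changes each way in the other comparisons. Siva1, Rps27l, Gtse1, Plk2, the markers and the genes of the closing observations were chosen after their values were seen. Alternatives were DESeq2 1.42.0, limma 3.58.1 (voom with quality weights, and limma-trend on log2 of CPM plus 1), other filters and scalings, fits of only the groups compared, a sample number block, a chemosensory receptor covariate, and leaving out each library. Library totals and upper quartile scaling were added after seeing the data.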

Additional observations from a re-analysis of the deposited data

Results flagged for a closer look

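The effect of Mysm1 loss without Puma, Mysm1-/-Puma-/- minus Puma-/-, differed from its effect with a Puma allele, Mysm1-/-Puma+/- minus wild type, in 3 genes by edgeR's test of that difference. Wild-type mice carry both Puma alleles and Mysm1-/-Puma+/- mice 1, so that pair differs in Puma as well as in Mysm1. Gem differed by -1.82 on the log2 scale (adjusted p = 0.0265). Sox11, a transcription factor, differed by 3.21 (adjusted p = 0.0274): it stood at -1.53 with a Puma allele and 1.68 without. It had 7.66, 7.47 and 5.28 CPM in B1, B3 and B5, 1.36, 3.10 and 1.91 CPM in C2, C3 and C5, 1.97, 1.84 and 1.68 CPM in A1, A2 and A3 and 5.27, 4.67 and 5.90 CPM in D2, D3 and D4. Bc1, a small brain cytoplasmic RNA, differed by 6.93 (adjusted p = 0.00726), from -2.91 with a Puma allele to 4.02 without. It had 4.41, 3.90 and 3.60 CPM in B1, B3 and B5, 0.0714, 0.305 and 0.354 CPM in C2, C3 and C5, 0.646, 0.329 and 0.577 CPM in A1, A2 and A3 and 3.09, 2.03 and 6.63 CPM in D2, D3 and D4. For Sox11 and Bc1 the double-knockout and wild-type libraries were high and the other 2 groups low, at levels under the mean log2 CPM of 2 that was asked of named rises and falls. The call of Bc1 ended without A2 or B1 (adjusted p = 0.0535 and 0.0505). That of Sox11 ended without any 1 library but A3 or C3 (adjusted p up to 0.205), and that of Gem without any 1 but A3, C3 or D4 (adjusted p up to 0.107).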

How the results depend on the processing

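The call count of the double knockout against wild type, 490 with edgeR, was 1054 with DESeq2 (337 higher and 717 lower), 1105 with limma voom, 906 with limma-trend, 835 with the chemosensory receptor level as a covariate (379 higher and 456 lower), 658 with only the groups compared, 631 with library totals and 608 with upper quartile scaling (209 higher and 399 lower), and 250 to 716 with 1 library left out. Mysm1-/-Puma+/- against wild type, 184 calls, gave 434, 858 and 297 with DESeq2, limma voom and limma-trend, 396 with the covariate and 98 to 328 with 1 library left out (lowest without D4, highest without A3). The double knockout against Mysm1-/-Puma+/-, 263 calls, was the least stable of these counts: it gave 1412 with DESeq2, 1724 with limma voom, 132 with library totals, 2 with only the groups compared, and 1 to 1086 with 1 library left out. Against Puma-/- its 285 calls were 639, 446 and 466 with DESeq2, limma voom and limma-trend, 507 with the covariate and 148 to 465 with 1 library left out (lowest without C2). Puma-/- against wild type gave 2 calls with DESeq2. The difference of the Mysm1 effect, 3 calls, gave 75 with DESeq2, 63 with limma voom, 1 with limma-trend, library totals or upper quartile scaling, 5 with the covariate and 0 to 23 with 1 library left out, and no fit of only the groups compared exists for it. The p53 targets called were 22, and 15 to 28 over all alternatives (16 to 25 with 1 library left out), with 0 falls in each. The cause of these changes was not tested. The sample numbers of the titles did not pair the libraries: deviations of 11 same-number pairs correlated at -0.349 to 0.315 and those of other pairs at -0.36 to 0.317, and 4 libraries correlated best with their own number. With the sample number as a replicate block the counts were 93 (29 higher and 64 lower), 54, 0 and 81 in the 4 comparisons of groups lacking Mysm1 and 0 for the difference of effects, with 2 mitosis, 44 histone, 6 ribosomal protein and 0 replication genes and 15 p53 targets in the double knockout against wild type.

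Of the 490 calls, 242 remained without D2, the lowest overlap with 1 library left out, and 92 remained under the block. None of the values computed under an alternative reversed the direction of a call. Of the other results, 804 list counts kept within 1.5 times of their first value, 155 were higher and 141 lower. Of the values of named genes, 5037 kept their direction and stayed called or not called as before. A further 158 gained a call, 439 lost it, and 32 that were called in neither fit changed sign. With 3 libraries a group, a change that missed the threshold is not shown to be absent.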

Other observations

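The following groups were chosen after their values were seen. Of 24 tested H2 genes of class I antigen presentation 7 rose and 0 fell in the double knockout against wild type. Their median log2 fold change over the 24 was 0.59. Higher ranges were found in 13 of the 24, against 9.61% of all tested genes. H2-Q5 had 181.9, 206.2 and 184.4 CPM in B1, B3 and B5 and 85.0, 101.7 and 87.7 CPM in D2, D3 and D4 (1.06, adjusted p = 0.00391). H2-D1 had 168.4, 174.1 and 152.9 CPM against 115.8, 108.9 and 114.4 CPM, a log2 fold change of 0.55. The others were H2-M3 (0.88), H2-T10 (0.81), H2-T3 (0.74), H2-Q10 (0.63) and H2-T23 (0.59). The count was 1 without D2 or D4, 2 without B1, B3 or C5 and 3 without B5 or C3. In Mysm1-/-Puma+/- against wild type edgeR called 0 of 24 (11 at an unadjusted p under 0.05, 7 calls by DESeq2, 9 by limma voom, median 0.45), and in the double knockout against Puma-/- 0 of 24 (12, 6 and 6, median 0.50). These genes are near-identical, so reads could be split between members.

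Of 11 Serpina3 genes, secreted protease inhibitors, 4 rose and 0 fell in the double knockout, 5 rose in Mysm1-/-Puma+/- cells and 3 in double-knockout against Puma-/- cells, and this family too is one of near-identical copies. Among parts of the cytoskeleton and protein folding, 5 of 24 tubulin genes and 2 of 9 genes of the CCT chaperonin fell and 0 rose. Ezh2 and Suz12, 2 of 3 core genes of the Polycomb complex that methylates histone H3, fell. Of the 6 genes of the replicative helicase, Mcm2 to Mcm7, 1 was called and all 6 were below 0.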
